A study of Mus musculus with 32 samples.

Results

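The 6 reporter genes described here, Wfdc3, Serpinb6c, Sord, Ilvbl, Slc15a2 and Agtrap, were taken as a readout of the human transcription factor DUX4 in mouse muscle. They were chosen by name, with earlier results of these data known, and were read in all 32 RNA-seq libraries as 6 of the 43035 genes in each table. The study sequenced whole muscle and sorted muscle cells of mice with an inducible DUX4 gene and of WT mice, and every animal, WT included, had been given chow with doxycycline, the drug that switches such genes on. The groups were DUX4 whole muscle at 2 weeks (IDUX.2Weeks, 5 libraries) and at 16 weeks (IDUX.16Weeks, 4), WT whole muscle at the same times (WT.2Weeks, 5, and WT.16Weeks, 4), CD31+ endothelial cells (CD31DUX, 4, and CD31WT, 3) and Pdgfrα+ fibroadipogenic progenitors, or FAPs, the connective tissue progenitors of muscle (PDGDUX, 4, and PDGWT, 3). Sorted cells came from hind limb muscle, and their RNA was amplified before library preparation, which that of whole muscle was not. None of the sources used here gives the promoter or cell type driving DUX4, the muscles behind the whole-muscle libraries, when the cells were sorted, or the sex and age of the mice. Nor do they say which libraries are from separate animals, so p-values measure the spread between these libraries, which may in part be technical.

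DUX4 is a double-homeobox factor of the early human embryo that is normally silent in adult muscle. Its return in muscle fibres underlies facioscapulohumeral dystrophy (FSHD), in which fibres degenerate and are replaced by fat and fibrous tissue. Since DUX4 protein is scarce and hard to detect, transcripts of its target genes are commonly used to read out its activity, in human biopsies as in mouse models.

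The reporters fall into 3 kinds of gene. Wfdc3 belongs to the WAP-domain family of small secreted proteins, many of them protease inhibitors, and Serpinb6c to the clade B serpins, protease inhibitors that act inside cells. Sord encodes sorbitol dehydrogenase, the enzyme of the polyol pathway that turns sorbitol into fructose, and Ilvbl encodes a lyase used in the alpha-oxidation of fatty acids. Slc15a2 encodes a proton-coupled transporter of short peptides at the cell surface, and Agtrap a membrane protein that binds the type 1 angiotensin receptor and promotes its removal from the surface. All 6 are protein-coding genes of the GENCODE annotation of GRCm38 (release vM21), in which Wfdc3 (ENSMUSG00000076434) spans 164731180 to 164745931 of chromosome 2 on the minus strand and Sord 122234749 to 122265340 of the same chromosome on the plus strand. Ilvbl spans 78574346 to 78584502 of chromosome 10 (plus), Slc15a2 36750177 to 36784962 of chromosome 16 (minus), Agtrap 148077061 to 148088031 of chromosome 4 (minus) and Serpinb6c 33879816 to 33905708 of chromosome 13 (minus). Only Slc15a2 overlapped another annotated gene, the processed pseudogene Gm8425 on the opposite strand, which stood at 2.48 CPM or less in every library.

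Because DUX4 binds DNA through its homeodomains, the promoters of the reporters were read for the letters of its motif. RefSeq windows from 250 bases before to 50 bases after the transcription start (GRCm38.p6) matched all 6 genes. For Ilvbl the window nearest to the GENCODE start was taken among 3. The motif searched was TAA, then any 3 bases, then AATCA, and it was in none of the 6 windows on either strand, against 1.03% of all 32851 windows of that length. The shorter string TAATCA, which the motif holds only where the last of its 3 free bases is T, was searched separately. It was in none of the 6 and in 7.97% of all windows. The core AATCA, which ends both longer motifs, was in 3 of the 6 windows against 37% of all windows. Those 3 windows, from the reporters with the largest change and from Slc15a2, are shown with the core (or its reverse complement TGATT) in capitals, together with the window of Sord, the most abundant reporter, which held none.
Wfdc3, GRCm38.p6, chr2:164743218-164743517, minus strand, 5′ to 3′: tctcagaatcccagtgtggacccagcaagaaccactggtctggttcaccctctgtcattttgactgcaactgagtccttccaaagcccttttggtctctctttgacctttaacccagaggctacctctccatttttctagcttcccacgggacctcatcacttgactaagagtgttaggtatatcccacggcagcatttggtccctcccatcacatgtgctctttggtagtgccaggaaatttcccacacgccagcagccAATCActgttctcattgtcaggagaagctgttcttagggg
Serpinb6c, GRCm38.p6, chr13:33905142-33905441, minus strand, 5′ to 3′: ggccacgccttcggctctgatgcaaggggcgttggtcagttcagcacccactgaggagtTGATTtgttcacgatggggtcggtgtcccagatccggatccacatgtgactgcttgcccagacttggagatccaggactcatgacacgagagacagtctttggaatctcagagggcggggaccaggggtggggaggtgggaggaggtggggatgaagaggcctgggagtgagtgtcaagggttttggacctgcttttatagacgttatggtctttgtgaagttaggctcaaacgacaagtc
Slc15a2, GRCm38.p6, chr16:36784913-36785212, minus strand, 5′ to 3′: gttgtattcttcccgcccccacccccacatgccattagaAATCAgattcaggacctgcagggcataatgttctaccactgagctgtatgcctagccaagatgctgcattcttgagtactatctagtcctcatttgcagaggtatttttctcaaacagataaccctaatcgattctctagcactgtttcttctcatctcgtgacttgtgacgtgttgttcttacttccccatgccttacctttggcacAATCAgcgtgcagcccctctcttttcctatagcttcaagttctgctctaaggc
Sord, GRCm38.p6, chr2:122234589-122234888, plus strand, 5′ to 3′: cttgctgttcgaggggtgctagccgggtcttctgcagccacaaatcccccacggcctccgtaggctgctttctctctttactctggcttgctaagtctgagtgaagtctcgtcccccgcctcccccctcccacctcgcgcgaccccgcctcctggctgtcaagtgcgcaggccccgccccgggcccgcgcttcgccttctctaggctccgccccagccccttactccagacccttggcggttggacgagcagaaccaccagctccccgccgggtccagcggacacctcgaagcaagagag
In the Slc15a2 window 1 of the 2 matches lay across the RefSeq start itself, from base -3 to base 1 counted with the start as 0, and in the Wfdc3 window the match lay from base 10 to base 14. The RefSeq starts of Wfdc3 and Serpinb6c lay 2664 and 517 bases inside the GENCODE genes, so that these 2 windows are not at the outermost annotated start. The letters G and C made up 66.7% of the Sord window and 50% of the Wfdc3 window. A match of letters is a description and does not show a binding site, and the absence of a match says nothing of binding elsewhere.

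Library totals ran from 6071276 to 20666816 counts, so that a count of 0 allowed a level of 0.129 to 0.504 CPM (counts scaled to the size of the library after TMM adjustment), taking 3 counts as the limit, and this covers counting error only. Whole muscle and sorted cells were scaled separately and are compared only within each. The summed level of 8 myofibre markers was 59651 to 120682 CPM with DUX4 and 118261 to 142657 CPM in WT at 2 weeks, and 56407 to 84846 against 107569 to 142152 CPM at 16 weeks. Its part in the reporter values was not tested. In bulk tissue, fewer cells of a type and less RNA per cell cannot be told apart. All 8 endothelial and all 8 FAP markers had counts in every library, whole muscle included, so their presence did not tell the sorted cell types apart. Their summed levels did differ. The endothelial sum was 4125 to 4774 CPM in CD31WT libraries, and no PDG library had more than 264 CPM. With DUX4, however, CD31 libraries had an endothelial sum of 3077 to 3621 CPM and a higher FAP sum, 6625 to 8718 CPM. The FAP sum of CD31WT libraries was 2779 to 4426 CPM. Sums over different genes do not give the share of each cell type. The 10 libraries at 2 weeks fell into 2 sets by Hoxd8, a gene that marks position along the body: replicates 1 to 3 of both genotypes had 45.5 to 72.7 CPM and replicates 4 and 5 of both had 3.82 to 4.62 CPM. The 8 libraries at 16 weeks had 27.1 to 48.9 CPM.

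All 6 reporters were higher with DUX4 in whole muscle at 2 weeks and again at 16 weeks, by a few fold for Sord, Ilvbl, Slc15a2 and Agtrap and by far more for Wfdc3 and Serpinb6c, which were nearly absent from WT muscle. The share of all 15396 tested genes called higher (adjusted p under 0.05 in edgeR's quasi-likelihood test) was 11.2% at 2 weeks and 14.1% at 16 weeks, where 6 of 6 reporters were called at both times. The libraries of the 2 genotypes did not overlap for 5 of 6 reporters at 2 weeks, against 8.95% of all tested genes that separated in this direction, and for 6 of 6 at 16 weeks, against 15.2%. The median log2 fold change of the reporters was 2.63 at 2 weeks and 2.12 at 16 weeks, beside -0.01 and 0.01 over all tested genes. Since the reporters were chosen with earlier results of these data known, their counts beside all genes are a description only. The same WT libraries served each reporter, so the 6 comparisons are not independent. The 2 times share no libraries.

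**Figure D1:**
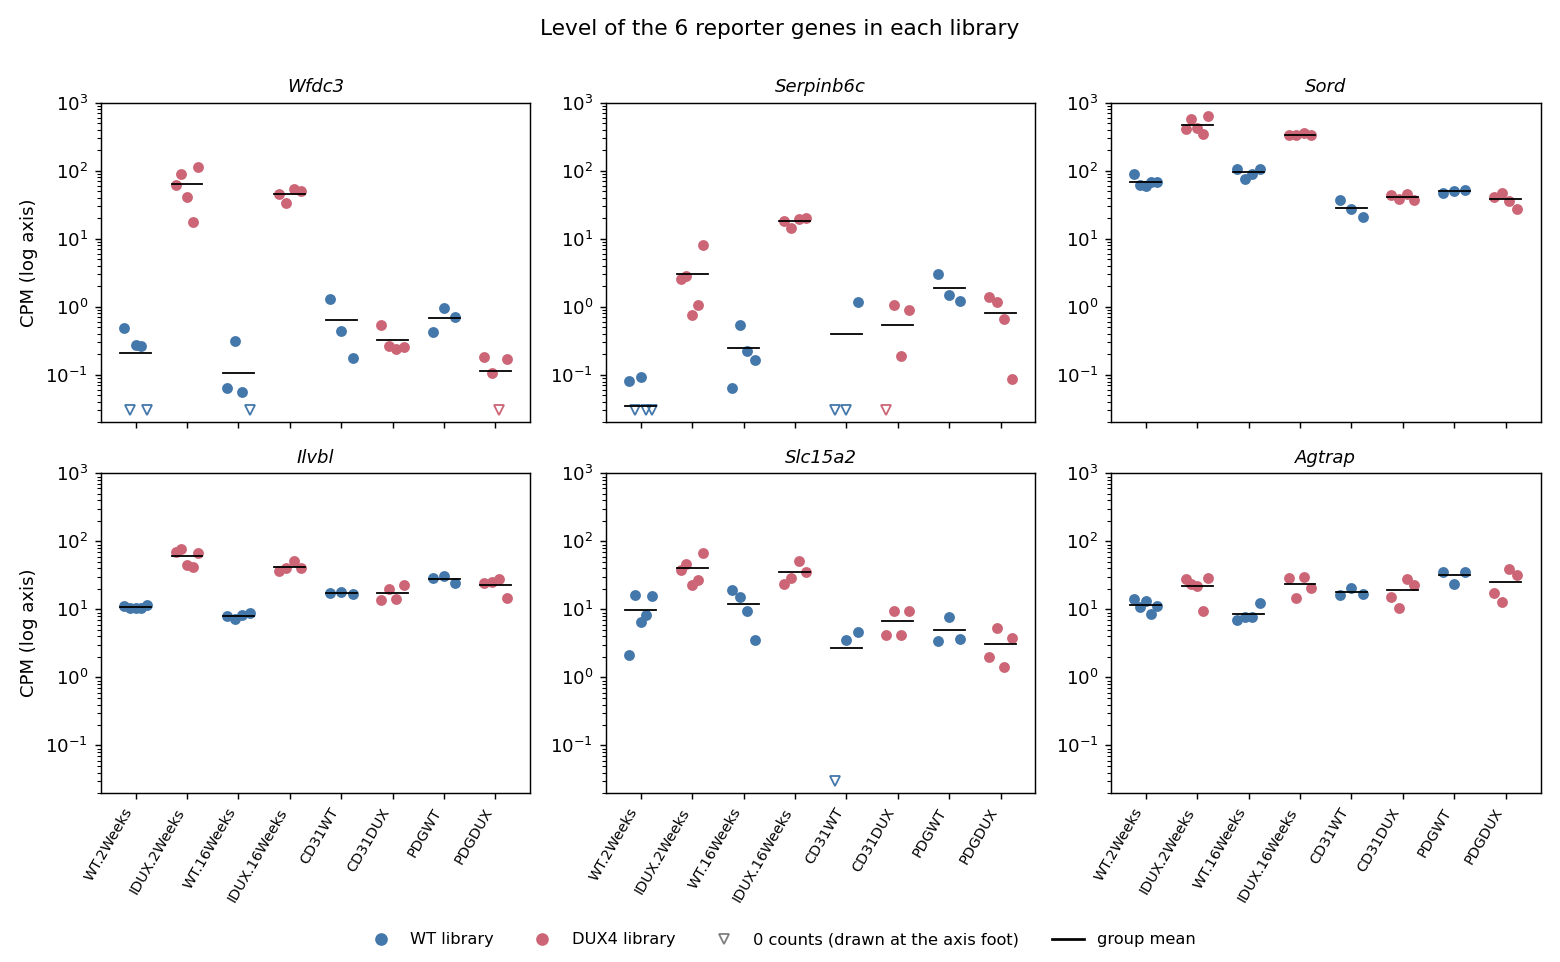
Level of each reporter gene in all 32 libraries, in CPM on a log axis, with 1 point per library, a bar at the group mean and open triangles for libraries with 0 counts. Wfdc3 lay between 17.7 and 114 CPM in the DUX4 muscle libraries and at or below 0.490 CPM in the WT muscle libraries, and in sorted cells no reporter had all DUX4 libraries above all WT libraries.

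Wfdc3 had the largest change. In IDUX.2Weeks it stood at 62.2, 90.7, 41.2, 17.7 and 114 CPM in replicates 1 to 5, and in WT.2Weeks at 0.490, 0, 0.275, 0.270 and 0 CPM. Every DUX4 library was above every WT library, and 2 of the WT libraries held no Wfdc3 count at all. Summed over libraries, 5005 counts with DUX4 stood against 13 counts in WT, a ratio of 295 with a 95% counting interval of 173 to 555. The log2 fold change was 8.14 ± 0.62 (SE; edgeR adjusted p = 3.07e-07). At 16 weeks Wfdc3 stood at 46.2, 33.4, 53.8 and 50.1 CPM with DUX4 and at 0.0651, 0.311, 0.0566 and 0 CPM in WT. The 4 DUX4 libraries were closer together than at 2 weeks, where the highest was 6.45 times the lowest, against 1.61 times at 16 weeks. Here 3209 counts stood against 6, a ratio of 415 (190 to 1131), with a log2 fold change of 8.52 ± 0.74 (edgeR adjusted p = 4.34e-06).

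Serpinb6c, the other inhibitor, had the lowest mean level per length of the reporters in DUX4 muscle at 2 weeks and was the 1 reporter called between the times in DUX4 muscle. It stood at 2.55, 2.86, 0.762, 1.08 and 8.09 CPM in IDUX.2Weeks and at 0.0817, 0, 0.0918, 0 and 0 CPM in WT.2Weeks. Replicate 5 was high and replicates 3 and 4 low among the DUX4 libraries, and even the lowest lay above the WT libraries. With 230 counts against 2 the ratio was 88.2 (95% counting interval 24.2 to 733), and the log2 fold change was 6.14 ± 0.85 (edgeR adjusted p = 0.000101). At 16 weeks the levels were 18.6, 14.6, 19.4 and 20.2 CPM with DUX4 and 0.0651, 0.544, 0.227 and 0.168 CPM in WT, again with no overlap. The ratio of 1266 to 13 counts was 75.5 (44.0 to 142) and the log2 fold change 6.12 ± 0.72 (edgeR adjusted p = 2.52e-05). Serpinb6c has close relatives beside it in the genome, so that estimated counts may be shared among near-identical sequences; of these, Serpinb6d had no count in any muscle library.

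Sord was the most abundant reporter per transcript length in all 8 groups. It stood at 406, 571, 421, 352 and 637 CPM in IDUX.2Weeks and at 89.7, 61.8, 59.9, 67.6 and 67.6 CPM in WT.2Weeks. The groups lay far apart, with replicate 5 again the highest DUX4 library and replicate 4 the lowest. The change of 2.78 ± 0.17 on the log2 scale, a 6.88-fold rise, had an edgeR adjusted p of 5.01e-08. At 16 weeks the DUX4 libraries were nearly equal, at 342, 338, 355 and 332 CPM, and the WT libraries were at 106, 76.0, 90.4 and 108 CPM. The groups did not overlap, and the log2 fold change was 1.85 ± 0.18, or 3.60-fold (edgeR adjusted p = 5.03e-06).

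Ilvbl had the tightest WT levels of the reporters in whole muscle, relative to the mean. In WT.2Weeks it stood at 11.2, 10.5, 10.4, 10.3 and 11.7 CPM and in IDUX.2Weeks at 70.9, 77.3, 44.9, 42.5 and 67.4 CPM. Replicates 3 and 4 were the low DUX4 libraries, as for Wfdc3 and Serpinb6c, and the groups did not overlap. The log2 fold change was 2.48 ± 0.16, or 5.60-fold (edgeR adjusted p = 5.45e-08). At 16 weeks the levels were 37.0, 40.1, 52.0 and 41.0 CPM with DUX4 against 7.88, 7.30, 8.15 and 8.92 CPM in WT, again without overlap, for a change of 2.40 ± 0.18, or 5.29-fold (edgeR adjusted p = 1.33e-06).

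Slc15a2, the peptide transporter, was higher with DUX4 against a WT level that varied widely. IDUX.2Weeks stood at 38.5, 45.9, 22.8, 27.1 and 68.0 CPM and WT.2Weeks at 2.12, 16.5, 6.52, 8.25 and 15.7 CPM. The groups did not overlap, but the highest WT library held 7.76 times the level of the lowest. The log2 fold change was 2.05 ± 0.49, or 4.15-fold (edgeR adjusted p = 0.00797). At 16 weeks the levels were 24.0, 29.4, 52.2 and 35.2 CPM with DUX4 and 19.1, 15.2, 9.51 and 3.53 CPM in WT, close to each other at the edge but not overlapping. The change was 1.55 ± 0.53, or 2.93-fold (edgeR adjusted p = 0.0409), and the call was lost in 6 of the 8 refits that left out 1 library of either group (adjusted p up to 0.119) and without the low-count filter (0.101).

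Agtrap, the angiotensin receptor partner, had the smallest estimated change at both times, although at 16 weeks that of Slc15a2 (1.55 ± 0.53) lay within its SE. The difference between these reporters was not tested. IDUX.2Weeks stood at 27.7, 23.6, 22.0, 9.44 and 29.2 CPM and WT.2Weeks at 14.2, 11.0, 13.1, 8.52 and 11.4 CPM. The DUX4 library of replicate 4 fell inside the WT range, and the other 4 lay above it. The log2 fold change of 0.94 ± 0.27, or 1.92-fold, was called (edgeR adjusted p = 0.0226), and the call was lost in 4 of 10 refits without 1 library, with adjusted p up to 0.0724 (IDUX.2Weeks replicate 1, 2 or 5 left out, or replicate 4 of WT.2Weeks). At 16 weeks Agtrap stood at 28.7, 14.6, 30.1 and 20.3 CPM with DUX4 and 6.97, 7.69, 7.70 and 12.4 CPM in WT. The groups no longer overlapped, and the change was 1.45 ± 0.31, or 2.74-fold (edgeR adjusted p = 0.00256).

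Within each of the 2 sets of 2-week libraries the mean of every reporter was higher with DUX4, and the libraries did not overlap except for Agtrap in the set with low Hoxd8 (9.44 and 29.2 against 8.52 and 11.4 CPM). The difference was not tested within single sets. The log2 ratio of group means was 2.72 for Sord in the set with high Hoxd8 and 2.87 in the other, 2.59 and 2.32 for Ilvbl, 2.09 and 1.99 for Slc15a2, 0.94 and 0.95 for Agtrap, and 7.99 and 8.93 for Wfdc3. Serpinb6c averaged 2.06 CPM with DUX4 against 0.0578 CPM in WT in the high set, and 4.58 CPM against 0 counts in the other. In the edgeR interaction test between the sets none of the 6 reporters was called, none had an unadjusted p under 0.05 and DESeq2 called none, and only 0.0264% of all genes were called. The log2 difference, low set minus high set, was 4.07 ± 3.14 for Serpinb6c, 0.81 ± 2.43 for Wfdc3 and -0.12 ± 1.07 for Slc15a2. For these reporters a difference of several fold could have been missed. The SE was 0.36 to 0.54 for Ilvbl, Sord and Agtrap. With a term for the sets, 6 of 6 reporters were again called higher at 2 weeks.

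Levels of different genes were set against each other as CPM per kilobase of annotated exon (mean ± SD). In WT muscle at 2 weeks Sord stood at 29.5 ± 5.06 (n = 5), Agtrap at 2.75 ± 0.52, Ilvbl at 2.45 ± 0.13 and Slc15a2 at 1.33 ± 0.83 CPM per kilobase. The ranges of one SD around the mean overlapped for Agtrap and Ilvbl, which were therefore not separable, and not for Ilvbl and Slc15a2. Wfdc3 (0.0819 ± 0.0826) and Serpinb6c (0.0249 ± 0.0343) were both near the counting limit there. With DUX4 at 2 weeks the order became Sord at 203 ± 51.2, Wfdc3 at 25.8 ± 15.2, Ilvbl at 13.7 ± 3.59, Slc15a2 at 5.50 ± 2.43, Agtrap at 5.28 ± 1.84 and Serpinb6c at 2.21 ± 2.12 CPM per kilobase. Wfdc3 was thus next to Sord in mean level, although its range of one SD overlapped that of Ilvbl. The ranges of Slc15a2 and Agtrap overlapped each other, and that of Serpinb6c overlapped both. The order of Slc15a2 and Agtrap changed between libraries, so that their places were not separable. Serpinb6c stood below both in each DUX4 library at 2 weeks. These orders were not tested. At 16 weeks Serpinb6c, at 13.1 ± 1.78 CPM per kilobase (n = 4), stood behind Sord (145 ± 4.20) and Wfdc3 (18.1 ± 3.51) and above Ilvbl (9.62 ± 1.48) on the same scale. Its range of one SD overlapped that of Wfdc3, although Wfdc3 stood above it in each DUX4 library at that time.

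**Figure D2:**
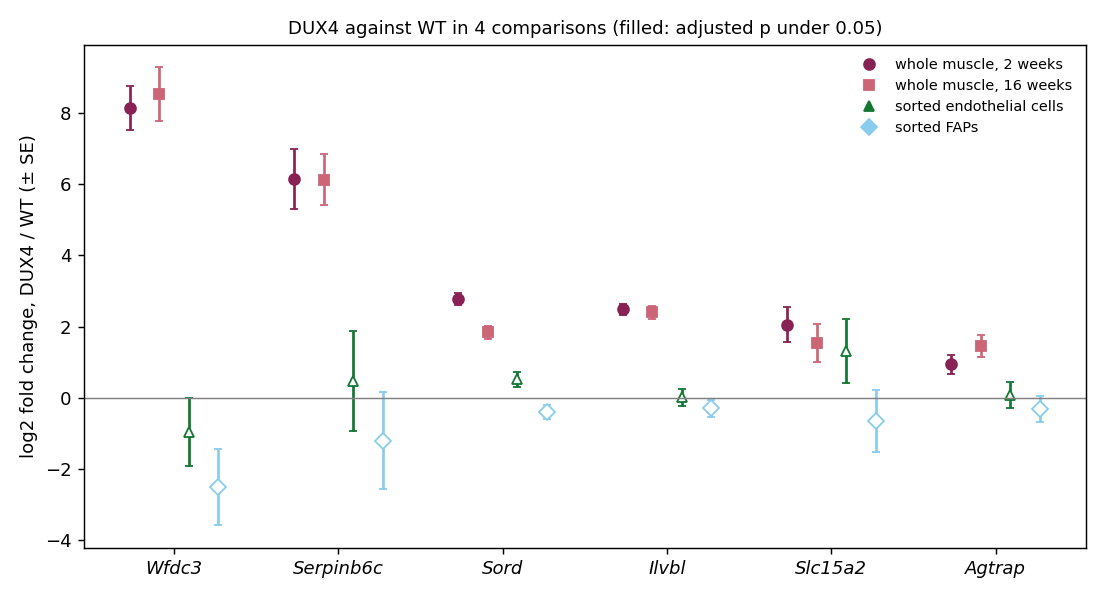
Log2 fold change of DUX4 against WT with its SE for each reporter in whole muscle at 2 and 16 weeks, sorted endothelial cells and sorted FAPs, filled where the edgeR adjusted p was under 0.05. The 12 changes in whole muscle lie between 0.94 and 8.52 and are filled, and the 12 in sorted cells are open.

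Whether the response itself changed with time was asked with an interaction term. None of the 6 reporters was called, beside 0.299% of all genes. Sord came nearest, with a DUX4 effect that was smaller at 16 weeks by 0.94 ± 0.24 on the log2 scale (a difference of -0.94, edgeR unadjusted p = 0.00104, adjusted p = 0.0928), and it was the 1 reporter with an unadjusted p under 0.05. DESeq2 called Sord in this test (adjusted p = 0.0155) and no other reporter, and over the other alternatives the edgeR adjusted p ran from 0.0617 to 0.163. The difference for Ilvbl was -0.08 ± 0.23, for Slc15a2 -0.50 ± 0.71 and for Agtrap 0.51 ± 0.40, each with an unadjusted p above 0.05. For Wfdc3 and Serpinb6c the WT levels were too close to 0 for a useful estimate.

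Within DUX4 muscle, Serpinb6c was the reporter that differed between 16 and 2 weeks. Its 4 libraries at 16 weeks (14.6 to 20.2 CPM) lay wholly above the 5 at 2 weeks (0.762 to 8.09 CPM), a log2 difference of 2.57 ± 0.51, or 5.93-fold (edgeR adjusted p = 0.00651), and 4.83% of all genes were called higher in this comparison, 2.42% were called lower and 7.59% did not overlap with the 16-week libraries higher. The other 5 reporters overlapped between the times. Ilvbl and Sord stood lower at 16 weeks by -0.51 ± 0.16 (edgeR adjusted p = 0.0621) and -0.48 ± 0.17 (0.0967) on the log2 scale, short of the threshold, and both passed it without IDUX.2Weeks replicate 4 (0.0208 and 0.0467). Ilvbl also passed it without IDUX.2Weeks replicate 3 (0.0320) or IDUX.16Weeks replicate 3 (0.0466). In WT muscle no reporter was called between the times (13.6% of genes were, either way), 3 had an unadjusted p under 0.05 (Sord, Ilvbl and Serpinb6c) and DESeq2 called none. The Ilvbl libraries of WT.16Weeks (7.30 to 8.92 CPM) nevertheless lay below those of WT.2Weeks (10.3 to 11.7 CPM), as did 5.85% of genes. Serpinb6c had 13 counts in WT at 16 weeks and 2 at 2 weeks, a ratio of 7.24 with a 95% counting interval of 1.64 to 66.1. Time and any difference in the muscles or preparation of the 2 groups of libraries cannot be told apart.

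No reporter was called between DUX4 and WT in sorted cells. None of the 6 was called in endothelial cells, where 5.07% of genes were called either way, and none in FAPs, where 3% were. At an unadjusted p under 0.05 there was 1 reporter in each, Sord in endothelial cells and Wfdc3 in FAPs, and DESeq2 called none in either. Nor was the difference of the DUX4 effect between FAPs and endothelial cells called for any reporter (2.25% of genes called, 1 reporter, Sord, at an unadjusted p under 0.05, and none by DESeq2). The SE of the differences between DUX4 and WT ran from 0.20 for Sord in FAPs to 1.40 for Serpinb6c in endothelial cells. It was 0.37 for Agtrap in both cell types, and 0.86 or more for Wfdc3, Serpinb6c and Slc15a2. For these reporters a change of the size of the Agtrap one in muscle at 2 weeks (0.94) could thus have been missed. The part of depth in these SE was not tested.

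Wfdc3 stood at 0.549, 0.263, 0.240 and 0.261 CPM in CD31DUX and at 1.30, 0.448 and 0.177 CPM in CD31WT. These groups overlapped, with 26 counts against 36 in all. In FAPs it stood at 0.184, 0.107, 0 and 0.171 CPM in PDGDUX and at 0.433, 0.948 and 0.715 CPM in PDGWT. Every DUX4 library lay below every WT library, the opposite order to whole muscle, as did 9.13% of all genes tested. The counts behind this were 5 against 34, a ratio of 0.170 (95% counting interval 0.0520 to 0.438), and the log2 difference of -2.50 ± 1.06 missed the threshold (edgeR adjusted p = 0.268). Beside these values, 8 endothelial markers summed to 93.5 to 159 CPM in PDGDUX against 228 to 264 CPM in PDGWT, with 3 of 8 called lower (Pecam1, Cdh5 and Egfl7), and of 4 Schwann cell markers Mbp was called lower. Their part in the reporter values was not tested. Serpinb6c stood at 0, 1.05, 0.192 and 0.914 CPM in CD31DUX against 0, 0 and 1.18 CPM in CD31WT, and at 1.38, 1.18, 0.665 and 0.0857 CPM in PDGDUX against 3.03, 1.49 and 1.21 CPM in PDGWT, overlapping in both cell types.

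The 4 reporters with a WT level in muscle were also present in sorted cells, except that Slc15a2 had 0 counts in CD31WT replicate 1. Sord stood at 44.1, 38.9, 45.5 and 37.1 CPM in CD31DUX and at 37.9, 27.6 and 21.3 CPM in CD31WT, and at 41.6, 47.3, 36.0 and 27.7 CPM in PDGDUX and 47.0, 50.4 and 52.7 CPM in PDGWT. Its groups met in both cell types, with log2 differences of 0.52 ± 0.21 in endothelial cells (edgeR adjusted p = 0.190) and -0.39 ± 0.20 in FAPs (0.399). Without CD31WT replicate 1 the endothelial difference passed the threshold (0.79, edgeR adjusted p = 0.0465). Ilvbl ran from 13.6 to 22.9 CPM in CD31DUX and 17.0 to 17.9 in CD31WT, and from 14.8 to 27.6 CPM in PDGDUX and 24.6 to 31.0 in PDGWT, with log2 differences of 0.02 ± 0.23 and -0.29 ± 0.23. Agtrap differed by 0.08 ± 0.37 and -0.32 ± 0.37, and Slc15a2 by 1.32 ± 0.89 and -0.64 ± 0.86, on the same scale. Beside the endothelial values, 6 of 8 FAP markers were called higher in CD31DUX, among them Lum (2.25 ± 0.20, edgeR adjusted p = 6.43e-06), and the myofibre markers summed to 327 to 801 CPM against 99.2 to 225 CPM, with none of 8 called. The part of these other cells in the reporter values was not tested.

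Most pairs of reporters had a positive r across the 9 DUX4 whole-muscle libraries, but no pair passed the test. Over all 15 pairs Pearson's r of log2 CPM was positive in 13, with a median of 0.48, and the lowest values were -0.30 and -0.28 for Serpinb6c with Sord and Ilvbl. Over the 10 pairs without Serpinb6c it was positive in all 10, from 0.37 to 0.81, with a median of 0.73. None of the 15 pairs passed an exact permutation test after Benjamini-Hochberg adjustment over the 15 (smallest adjusted p = 0.0581), while 6 had an unadjusted p under 0.05 by Pearson's r and 4 by Spearman's rho. Wfdc3 and Agtrap had the highest r (0.81, exact permutation p = 0.00686, adjusted 0.0581; rho = 0.72, p = 0.0369, adjusted 0.138), which fell to 0.51 without the 2 libraries farthest from the median of Wfdc3. Ilvbl and Sord followed with r = 0.80 (exact permutation p = 0.00978, adjusted 0.0581; rho = 0.82, p = 0.0108, adjusted 0.0808), and r was 0.87 without the 2 libraries farthest in Ilvbl. Serpinb6c split the libraries by time, so that its pooled r mixes both times. As deviations from the mean of each time, r was positive in all 15 pairs, from 0.50 to 0.88 (0.56 to 0.85 for Serpinb6c), with a median of 0.74. An exact permutation within times (2880 pairings) again called none of the 15 (smallest adjusted p = 0.0625), with 6 at an unadjusted p under 0.05 by Pearson's r and 7 by Spearman's rho. Within times and Hoxd8 sets (288 pairings) r ran from 0.61 to 0.96 and none was called either (exact permutation, smallest adjusted p = 0.0521, with 5 at an unadjusted p under 0.05). The smallest exact permutation p that 288 pairings allow, 0.00347, was that of Ilvbl and Slc15a2. Adjusted over the 15 pairs, a single pair at this p stays above 0.05, so that the test cannot decide on it. Both of these permutations were added after seeing the data.

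**Figure D3:**
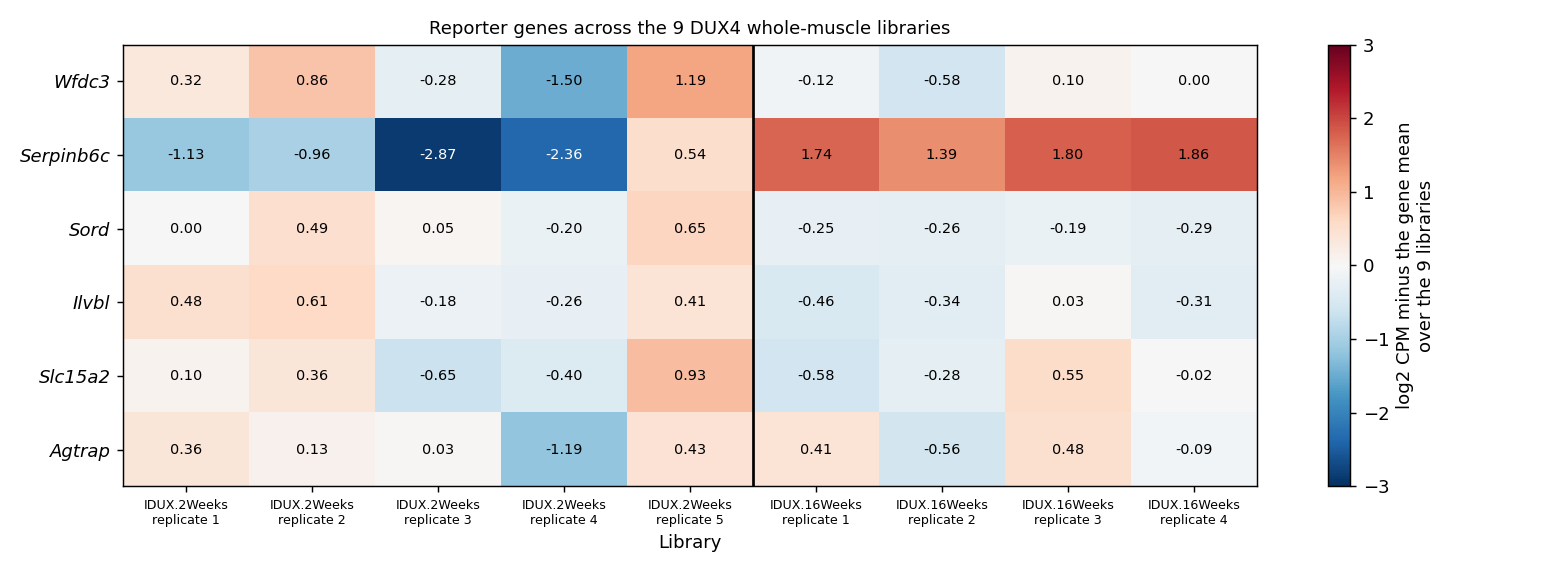
Log2 CPM of each reporter in the 9 DUX4 whole-muscle libraries, as the difference from its own mean over them, with 1 row per gene and 1 column per library. Replicate 5 at 2 weeks is above the mean for all 6 genes, replicate 4 is below it for all 6, and Serpinb6c is above its mean in all 4 libraries at 16 weeks.

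IDUX.2Weeks replicate 5 was above the mean for every reporter, from 0.41 for Ilvbl to 1.19 for Wfdc3 on the log2 scale, and replicate 4 was below it for every reporter, from -0.20 for Sord to -2.36 for Serpinb6c. Both belong to the set with low Hoxd8. In the 9 WT muscle libraries, where Wfdc3 and Serpinb6c were near 0, the same 10 pairs without Serpinb6c had a median r of -0.26 and 3 of 10 were positive, with none of 15 pairs called (3 at an unadjusted p under 0.05 by Pearson's r). The difference between DUX4 and WT libraries in these correlations was not tested. All libraries of a genotype share their scaling and their split by time, which can move genes together.

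A score of DUX4 activity was formed as the mean log2 CPM of the 6 reporters. It stood at 5.38, 5.60, 4.74, 4.39 and 6.04 in IDUX.2Weeks and at 5.47, 5.24, 5.81 and 5.54 in IDUX.16Weeks. The WT muscle libraries ran from 1.83 to 2.40, so that no DUX4 library was near them. The group means were 5.23 ± 0.66 (SD, n = 5) at 2 weeks and 5.52 ± 0.23 (n = 4) at 16 weeks with DUX4, where Serpinb6c alone was called higher. In sorted cells, scaled apart from muscle, the score of endothelial libraries ran from 1.95 to 2.70 with DUX4 and from 1.32 to 2.25 in WT, and that of FAP libraries from 1.94 to 2.44 with DUX4 and from 2.94 to 3.16 in WT. The FAP groups did not overlap, with DUX4 the lower. This difference in score was not tested, and none of the 6 reporters was called in FAPs. The largest log2 differences there were those of Wfdc3 (-2.50 ± 1.06, 5 against 34 counts) and Serpinb6c (-1.20 ± 1.36, 34 against 93 counts). Library totals also differed, at 10998837 to 13725746 counts in PDGDUX and 16551480 to 18938910 in PDGWT. The part of depth in the score was not tested.

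Damage was read from 5 gene lists, which were chosen with earlier results of these data known. Over all tested genes 11.2% were called higher and 6.47% lower at 2 weeks, and 14.1% and 12.5% at 16 weeks. Of 14 genes of regeneration (genes of young and re-forming fibres), 8 were called higher at 2 weeks, among them Ncam1 (log2 1.40 ± 0.26, edgeR adjusted p = 0.00139) and the perinatal myosin Myh8 (2.50 ± 0.54, 0.00450), and 8 at 16 weeks, with a list median of 1.98 at 2 weeks. Of 11 genes of mature fast fibres, 10 were called lower at 2 weeks and 8 at 16 weeks (medians -0.89 and -0.89), led by Actn3, a fast-fibre anchor of actin (-1.44 ± 0.30 and -2.01 ± 0.34). Of 10 targets of p53, the damage-response factor, 5 were called higher at 2 weeks and 3 at 16 weeks, with Ccng1 at 0.99 ± 0.14 and 0.55 ± 0.16. Of 14 fibrillar matrix genes 2 were called higher at 2 weeks and 7 at 16 weeks, and of 12 macrophage genes 2 and 1. Between 16 and 2 weeks, 0 of the 14 matrix genes were called in DUX4 muscle (list median -0.48). In WT muscle 7 of them were called lower at 16 weeks (median -1.64), beside 13.6% of all genes called either way. The part of this lower WT level in the larger count at 16 weeks was not tested. The matrix level of WT.2Weeks (mean log2 CPM) itself differed between the Hoxd8 sets. It was 5.22 to 5.39 in replicates 1 to 3 and 4.22 and 4.28 in replicates 4 and 5.

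Across the 9 DUX4 libraries, no relation of a reporter to these lists passed the test. Of 30 relations (6 reporters by 5 lists) none passed the exact permutation test after adjustment (smallest adjusted p = 0.322), and 3 had an unadjusted p under 0.05 by Pearson's r and none by Spearman's rho. All 3 were of Agtrap. Its r was 0.75 with regeneration (exact permutation p = 0.0253; rho = 0.42, p = 0.270), 0.81 with p53 targets (p = 0.0148; rho = 0.43, p = 0.250) and -0.71 with mature fast fibre genes (p = 0.0330; rho = -0.38, p = 0.313), each with an adjusted p of 0.322 for r. Without the 2 libraries farthest from the Agtrap median, IDUX.2Weeks replicate 4 and IDUX.16Weeks replicate 2, these r were -0.03, -0.14 and 0.24, so that the relations rest on those libraries. Without IDUX.2Weeks replicate 5, in contrast, the r of Agtrap with regeneration was 0.94 and that of Wfdc3 with p53 targets 0.91, and both were called (exact permutation adjusted p = 0.0476). The lists themselves differed between the sets, with a macrophage level (mean log2 CPM) of 3.87 to 3.93 in the 3 DUX4 libraries with high Hoxd8 and of 2.43 and 2.24 in the 2 with low Hoxd8. The 30 relations include those of Serpinb6c, whose pooled r mixes both times. With deviations from the mean of each time, an exact permutation within times called none of the 30 (smallest adjusted p = 0.529, 2 at an unadjusted p under 0.05, both of Agtrap). Within times and sets it called none either (exact permutation, smallest adjusted p = 0.391, none at an unadjusted p under 0.05). With the 288 pairings of that test a single relation could not have passed the adjustment over 30, whatever its r.

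The score, which was not tested, had an r of 0.40 with regeneration, 0.54 with p53 targets, -0.56 with mature fast fibre genes, -0.31 with fibrillar matrix and 0.01 with macrophage genes over the 9 DUX4 libraries. Without the 2 libraries farthest from the median score, IDUX.2Weeks replicates 3 and 4, the first 3 became -0.40, -0.02 and 0.02. Formed without Serpinb6c, the score had an r of 0.34, 0.57 and -0.51 with the same 3 lists, and of 0.75, 0.75 and -0.53 without its own 2 farthest libraries, IDUX.2Weeks replicates 2 and 5. For these 2 scores the relation thus depended on which libraries and which reporters entered it. A score of all 6 reporters, each first standardised over the 9 libraries, had an r of 0.34, 0.55 and -0.51. Without its own 2 farthest libraries these values were 0.34, 0.54 and -0.33. The library with the highest score, replicate 5, had a regeneration level of 3.86 (mean log2 CPM of the list), below 7 of the other 8 DUX4 libraries, and the lowest macrophage level, 2.24. The library with the lowest score, replicate 4, had the lowest regeneration level and the highest fast fibre level (12.8) of the 9. Within the 2-week libraries (n = 5) the r of the score was 0.36 with regeneration, 0.55 with p53 targets, -0.71 with fast fibre genes, -0.33 with fibrillar matrix and -0.05 with macrophage genes. Within the 16-week libraries (n = 4) these values were 0.32, 0.44, -0.07, -0.15 and 0.42. Among WT libraries, WT.2Weeks replicate 1 and WT.16Weeks replicate 1 stood apart in regeneration, at 3.91 and 3.81 against 1.75 to 2.55 in the others, with scores of 2.03 and 2.05 inside the WT range. Without WT.2Weeks replicate 1 all 6 reporters were again called at 2 weeks, and without WT.16Weeks replicate 1 all 6 at 16 weeks.

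**Figure D4:**
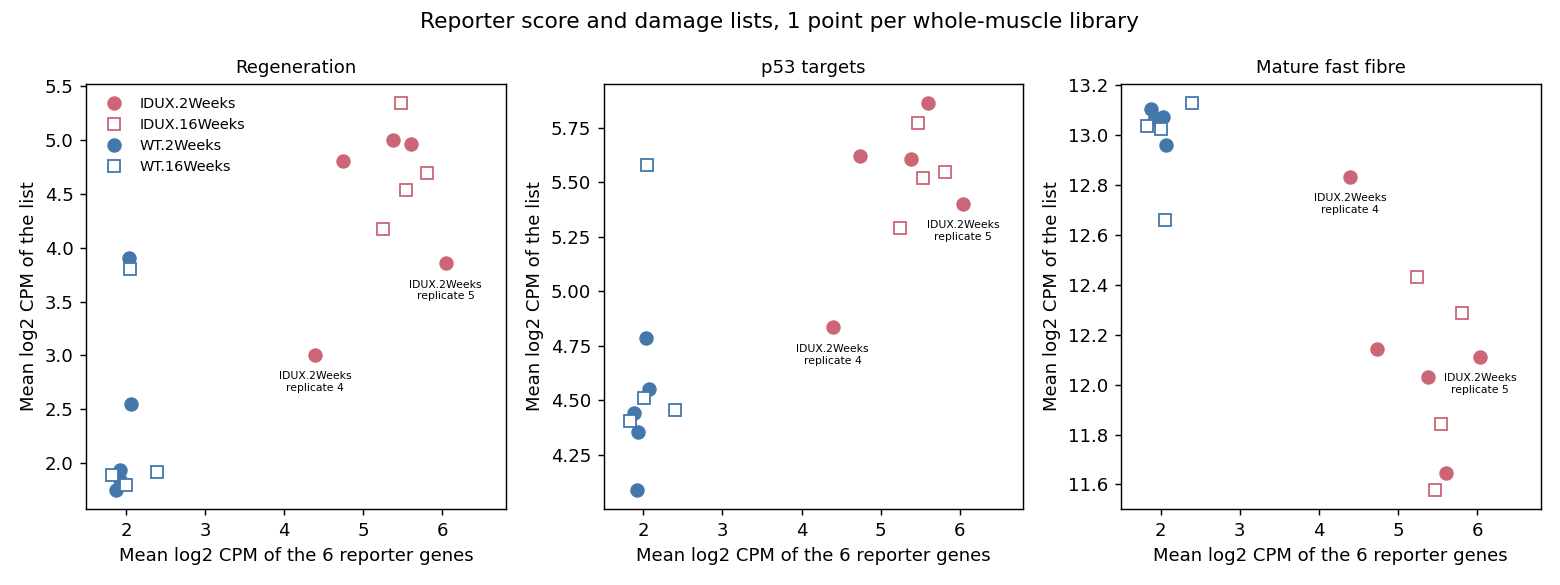
Mean log2 CPM of the regeneration, p53 target and mature fast fibre lists against the reporter score in the 18 whole-muscle libraries, with 1 point per library, DUX4 in red and WT in blue. The DUX4 libraries lie at scores of 4.39 to 6.04 and the WT libraries at 1.83 to 2.40, and within the DUX4 libraries replicate 5 at 2 weeks has the highest score without the highest regeneration level.

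The other genes of the reporters' pathways were read from lists drawn up with earlier results known. In polyol and fructose handling, 2 of 9 tested genes were called higher at both times, beside 11.2% and 14.1% of all genes. They were Akr1b3, the aldose reductase that makes the sorbitol on which Sord acts (log2 1.73 ± 0.13 at 2 weeks, edgeR adjusted p = 1.92e-07, and 0.000103 at 16 weeks), and the hexokinase Hk1 (1.31 ± 0.19 and 2.41 ± 0.22). The hexokinase Hk2 was called lower at 2 weeks (-0.82 ± 0.24). Akr1b3 stood at 520, 531, 487, 348 and 590 CPM in IDUX.2Weeks and at 172, 130, 156, 141 and 147 CPM in WT.2Weeks. Its groups did not overlap, and replicates 5 and 4 were the highest and lowest DUX4 libraries, as for Sord. At 16 weeks Akr1b3 stood at 311, 302, 365 and 301 CPM with DUX4 and at 158, 156, 157 and 170 CPM in WT, again without overlap. The list median was 0.56 at both times, beside -0.01 and 0.01 over all genes.

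In the angiotensin system 4 of 8 tested genes were called higher and 1 lower at 2 weeks, beside 11.2% and 6.47% of all genes, and 3 higher at 16 weeks, beside 14.1%. Agtr2, the type 2 angiotensin receptor, stood at 78.4, 165, 45.3, 41.8 and 97.2 CPM in IDUX.2Weeks and at 0.735, 0, 0.0918, 0 and 0 CPM in WT.2Weeks. That is a separation of the order of the Wfdc3 one, with a log2 fold change of 8.88 ± 0.73 (edgeR adjusted p = 5.66e-07), and at 16 weeks it was 7.78 ± 0.82. Atp6ap2, the prorenin receptor, changed by 1.22 ± 0.18 and 0.69 ± 0.20, and Mas1, a receptor for angiotensin fragments, by 2.01 ± 0.45 and 1.45 ± 0.50, all called by edgeR. Agtr1a, the type 1 receptor to which the Agtrap protein binds, differed by -1.01 ± 0.37 at 2 weeks (edgeR adjusted p = 0.0685) and -0.56 ± 0.42 at 16 weeks (0.346), neither past the threshold. The list medians were 0.06 and 0.49.

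Of 7 tested clade B serpins besides Serpinb6c, 3 were called higher at both times, beside 11.2% and 14.1% of all genes, namely Serpinb6a (1.66 ± 0.28 and 1.33 ± 0.31), Serpinb8 (1.69 ± 0.38 and 1.43 ± 0.42) and Serpinb6e (3.89 ± 1.08 and 4.57 ± 1.12). Of the peptide transporters, Slc15a3, which acts in lysosomal membranes, was called at 16 weeks (2.07 ± 0.55, edgeR adjusted p = 0.0110) and stood at 0.52 ± 0.49 at 2 weeks, and Slc15a4 was not called at either time. In the WAP family 2 of 19 genes besides Wfdc3 had enough counts to be tested, and Wfdc1 was called lower at both times (-0.74 ± 0.20 and -0.82 ± 0.22) as well as in endothelial cells (-1.13 ± 0.27) and FAPs (-2.04 ± 0.27). In fatty acid alpha-oxidation Fa2h, which makes the 2-hydroxy fatty acids, was called higher at both times (1.31 ± 0.43 and 1.58 ± 0.49), Amacr higher at 16 weeks (0.45 ± 0.15) and Phyh lower at 2 weeks (-0.45 ± 0.14). Of 21 early-embryo targets of mouse Dux 20 were matched by symbol, and of these only Usp17la had enough counts to be tested, and it was not called (edgeR adjusted p = 0.540 at 2 weeks and 0.0925 at 16 weeks).

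To see whether the response reached beyond the reporters in the genome, the nearest coding genes on either side were read. Of 11 neighbours 7 could be tested, and 3 were called higher at both times, beside the 11.2% and 14.1% of all genes. They were Draxin, next to Agtrap, and Serpinb6e and Serpinb6a, on the 2 sides of Serpinb6c. Both of these serpins are relatives of Serpinb6c with which estimated counts may be shared. Both are also counted among the clade B serpins above. Draxin, a secreted axon guidance protein whose gene lies 10405 bases from Agtrap and on the same strand, stood at 4.32, 9.17, 2.41, 1.55 and 7.33 CPM in IDUX.2Weeks and at 0.490, 0.108, 0.275, 0.0676 and 0.283 CPM in WT.2Weeks. All DUX4 libraries were above all WT libraries, replicate 4 was the lowest of the former, and the log2 fold change of 4.30 ± 0.63 (edgeR adjusted p = 0.000170) was larger than the 0.94 ± 0.27 of Agtrap itself. At 16 weeks Draxin stood at 5.37, 4.88, 7.69 and 7.75 CPM with DUX4 and 0, 0.388, 0.170 and 0 CPM in WT, a change of 5.32 ± 0.75. The difference between the changes of Draxin and Agtrap was not tested.

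Serpinb6a, a widely expressed serpin 12209 bases from Serpinb6c, stood at 527, 576, 380, 249 and 500 CPM in IDUX.2Weeks and at 214, 158, 148, 83.2 and 103 CPM in WT.2Weeks. These groups did not overlap. Serpinb6e had low counts in every group, 0 to 0.829 CPM in IDUX.2Weeks and 0 to 0.0918 CPM in WT.2Weeks. Dnttip1, a deacetylase-complex gene that starts 51 bases from the annotated start of Wfdc3 on the other strand, differed by 0.40 ± 0.17 at 2 weeks (edgeR adjusted p = 0.126) and -0.08 ± 0.19 at 16 weeks (0.793). Syde1, which ends directly beside Ilvbl on the other strand, differed by -0.23 ± 0.22 and 0.14 ± 0.25, and neither gene was called at either time. Duox2 beside Sord differed by -0.68 ± 0.84 at 2 weeks (edgeR adjusted p = 0.627) and 3.06 ± 1.11 at 16 weeks (0.0504), not called at either time. None of the 6 neighbours tested in sorted cells was called in endothelial cells or in FAPs.

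**Figure D5:**
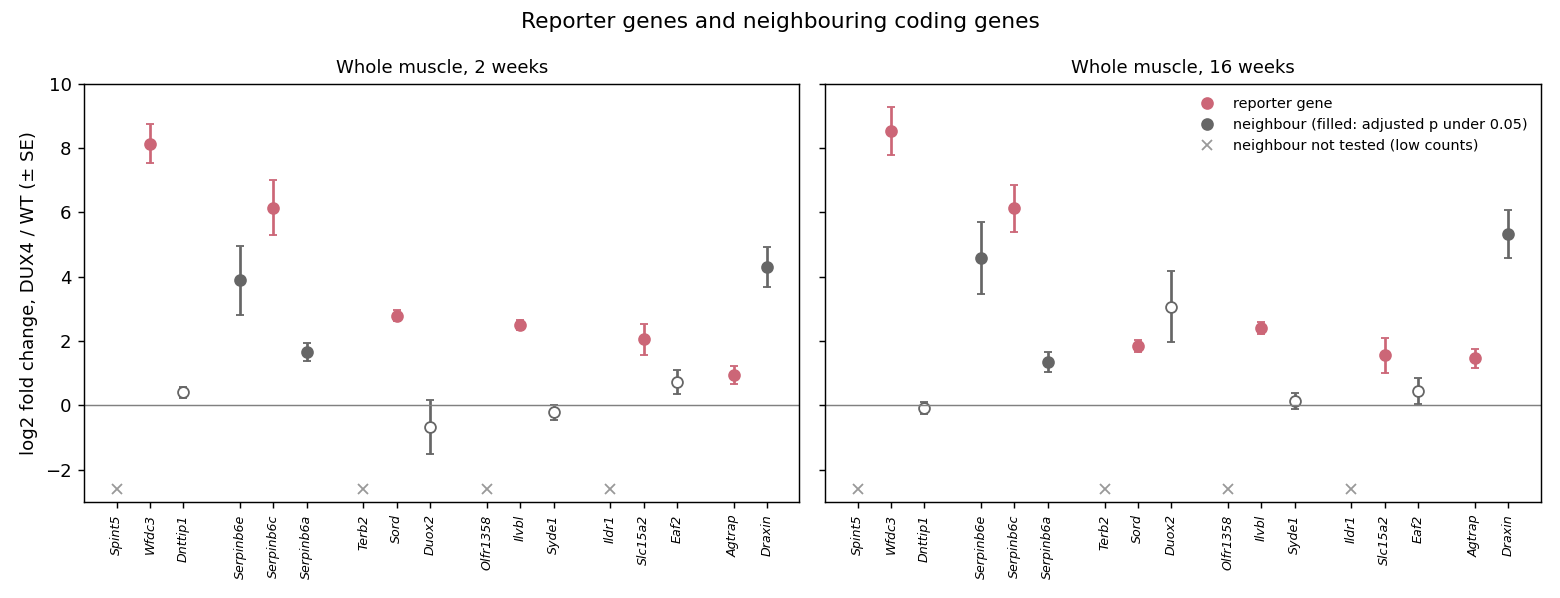
Log2 fold change of DUX4 against WT muscle, with its SE, for each reporter (red) and 11 neighbouring coding genes (grey, filled where the edgeR adjusted p was under 0.05), at 2 and 16 weeks. Draxin, Serpinb6a and Serpinb6e are the filled neighbours at both times, and neighbours with too few counts are marked by crosses at the foot.

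The genes most like the reporters were ranked by Pearson's r of log2 CPM with the score, keeping those that averaged at least 5 CPM over the libraries used. Over the 9 DUX4 libraries, among 9282 genes, they were Ezr (r = 0.97), which encodes the membrane-to-actin linker ezrin, Arhgef25 (0.96), Itm2c (0.96), Scamp1 (0.95) and Entpd3 (0.95), an enzyme that breaks down extracellular nucleotides. Over all 18 muscle libraries, among 9168 genes, they were Entpd3 (0.99), the lysophosphatidic acid receptor Lpar3 (0.99), Ezr (0.99), Osbpl3 (0.99) and Mre11a (0.99), a nuclease of DNA break repair. Entpd3 and Ezr were in both lists of 5. These are the extremes of many genes over few libraries that share scaling and, over the 18, the split by genotype, and they are a description only.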

How the data were processed

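The 18 muscle and 14 sorted-cell libraries of RNA were read as estimated counts per Ensembl gene, which the authors made with Salmon 0.6.0 from paired reads of 50 bases, with CASAVA 1.8 and build mm10 also named per the submitters' processing notes. Expected counts were deposited unscaled and were rounded here. Whole muscle and sorted cells were fitted separately with edgeR 4.0.16 (filterByExpr with a minimum count of 10, TMM, robust quasi-likelihood test, Benjamini-Hochberg adjustment over all genes tested, threshold 0.05) in R 4.3.3, after tests on simulated data. SE is the log2 fold change divided by the square root of F. Scores and correlations used log2 CPM with a prior count of 2, and p-values for r and rho came from all 362880 pairings (scipy 1.17.1). Permutations within times, and within times and Hoxd8 sets, were added after seeing the data. Counting intervals are exact at 95%. DESeq2 1.42.0, other size factors, no filter, the Hoxd8 set as a covariate and leaving out each library were alternatives. Gene positions came from GENCODE vM21 and promoters from RefSeq. From each list the text names up to 3 called genes with the smallest p, and partners of a reporter. The reporters and lists were chosen with earlier results of these data known. One neighbouring gene is not reported here. The row of the human DUX4 transgene was not used here.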

Additional observations from a re-analysis of the deposited data

Results flagged for a closer look

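In 4 of 36 combinations of a reporter and a group of 4 or 5 libraries, 1 library lay far from the others of its group by Dixon's test at 95%, which chance does in about 1 in 20. Serpinb6c stood at 8.09 CPM in IDUX.2Weeks replicate 5, against 0.762 to 2.86 CPM in the other 4. In WT.2Weeks replicate 1 the level of Sord was 89.7 CPM, and it was 59.9 to 67.6 CPM in the other 4. Agtrap stood at 12.4 CPM in WT.16Weeks replicate 4, against 6.97 to 7.70 CPM. Wfdc3 stood at 0.549 CPM in CD31DUX replicate 1, against 0.240 to 0.263 CPM, a difference of a few counts.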

How the results depend on the processing

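All 6 reporters were called higher at 2 weeks and at 16 weeks under DESeq2 and other size factors, and 5 or 6 of 6 when any 1 library was left out; without the low-count filter Slc15a2 lost its call at 16 weeks. No direction of a called difference reversed. The number of reporters called between 16 and 2 weeks in DUX4 muscle was 1, and ran from 1 to 3 with 1 library left out (2 without IDUX.2Weeks replicate 3 or IDUX.16Weeks replicate 3, and 3 without IDUX.2Weeks replicate 4). It ran from 0 to 1 in WT muscle between the times (1 without WT.2Weeks replicate 1), in endothelial cells and in the difference between FAPs and endothelial cells (1 without CD31WT replicate 1 in both). DESeq2 called 1 in the difference between times. Pairs of reporters called ran from 0 to 1 (1 without IDUX.2Weeks replicate 2), and relations to damage lists from 0 to 2 (2 without IDUX.2Weeks replicate 5, Agtrap with regeneration and Wfdc3 with p53 targets). The causes were not tested.

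Over all genes, 2717 were called at 2 weeks and 1756 without IDUX.2Weeks replicate 2. Between times in DUX4 muscle 1116 were called, 1686 by DESeq2 and from 682 with 1 library left out. Between times in WT 2091 were called, 1305 without the filter and from 1251 with 1 library left out. In endothelial cells 863 were called, 1488 by DESeq2 and from 520 with 1 library left out. In FAPs 510 were called, 1068 by DESeq2 and from 291. The difference between times had 46, 453 by DESeq2, 19 without the filter, 137 with the term for the sets and 8 to 57 with 1 library left out. The difference between cell types had 383, 841 by DESeq2 and from 238. The difference between sets had 4, 29 by DESeq2, 8 without the filter and 0 to 97.

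No paired analysis was possible because the labels give no replicate numbers, and those used here follow accession order. Wfdc3 and Serpinb6c in WT muscle lay near the 3-count limit, and the intervals of their ratios cover counting error only, not the spread between libraries.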
